A study of Mus musculus with 6 samples.

Results

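The RTP (receptor transporting protein) and REEP (receptor expression enhancing protein) genes of the mouse olfactory mucosa are described here. They were taken by gene symbol, and all 10 (Rtp1 to Rtp4 and Reep1 to Reep6) are among the 24661 genes in the files and had counts enough to be tested. RNA-Seq was performed on the whole olfactory mucosa of 3 wild-type mice and 3 RTP1,2DKO mice, which are homozygous for null alleles of both Rtp1 and Rtp2. All 6 mice were 21 days old and carry the strain label C57BL/6, and per the study's methods they were 2 males and 1 female of each genotype, sex-matched littermates. Both null alleles are deletions of the protein-coding sequence. They were made by successive rounds of gene targeting in 129/B6 hybrid embryonic stem cells, Rtp1 first, and a drug resistance cassette remains at Rtp2 and a loxP site at Rtp1. Between 31125410 and 41636996 estimated reads were assigned to transcripts in each mouse.

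RTP1 and RTP2 are small membrane-associated proteins of olfactory sensory neurons (OSNs) that help odorant receptors leave the endoplasmic reticulum and reach the cell surface when expressed with them in heterologous cells. REEP1 was found in the same kind of assay. RTP3 and RTP4 have been linked to the surface expression of other G protein-coupled receptors, and RTP4 is induced by interferon. The REEP proteins carry hairpin segments that sit in the membrane of the endoplasmic reticulum and bend it, and REEP1 is mutated in a form of hereditary spastic paraplegia, a disease of long axons.

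Rtp1 lies on chromosome 16 from 23429133 to 23433960 (GRCm38, plus strand) and Rtp2 on the same chromosome from 23925548 to 23932394 (minus strand), 491587 bases away. Each has 1 transcript in the files, of 3120 and 2428 bases, the lengths of the GENCODE transcripts Rtp1-201 and Rtp2-201. Only 25.3% of the Rtp1 transcript (789 bases) and 27.6% of the Rtp2 transcript (669 bases) is coding, and 2285 bases of Rtp1 and 1663 bases of Rtp2 follow the stop codon. The coding sequences of this pair are close relatives, identical at 545 of 663 aligned bases (82.2%). The longest stretch they have in common is 47 bases long, within coding bases 565 to 611 of Rtp1 and 457 to 503 of Rtp2. It is shown because a read lying wholly within it matches both genes. Capitals mark the common stretch, with 20 coding bases of each gene on either side (Rtp1 at chr16:23431431-23431517, plus strand, and Rtp2 at chr16:23927357-23927443, minus strand).
Rtp1: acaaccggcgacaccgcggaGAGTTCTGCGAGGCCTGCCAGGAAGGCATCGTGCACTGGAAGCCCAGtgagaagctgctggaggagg
Rtp2: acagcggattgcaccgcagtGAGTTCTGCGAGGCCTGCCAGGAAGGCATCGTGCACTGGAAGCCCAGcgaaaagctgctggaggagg

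Outside such stretches the genes can be told apart. Of the 3090 different words of 31 bases in the Rtp1 transcript, 25 were also found in Rtp2 and in no other GENCODE gene, all of them in the coding sequence, and none of the words after the stop codon of Rtp1 occurred in Rtp2.

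The targeted genes were first examined in every mouse. Rtp1 and Rtp2 transcripts were abundant in the wild-type and fell in each mutant to less than 1% of the wild-type mean, but reads assigned to both remained. Estimated counts of Rtp1 were 19838.6, 26518.0 and 12283.0 in the 3 wild-type mice and 86, 98 and 111 in the 3 RTP1,2DKO mice. Those of Rtp2 were 8214.4, 9968.0 and 6491.0 in the wild-type and 55, 30 and 52 in RTP1,2DKO. The groups were far apart for both genes, so the values of all 6 mice go with their genotype labels.

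After division by size factors (normalized counts), the wild-type level of Rtp1 was 19788.3 ± 5913.3 and the RTP1,2DKO level 95.0 ± 12.2 (mean ± SD of 3 mice). Rtp1 thus had a log2 fold change of -7.70 (SE 0.26, adjusted p = 7.2e-09, edgeR quasi-likelihood test over all genes). For Rtp2 these levels were 8388.1 ± 1180.7 and 45.0 ± 16.7, with a log2 fold change of -7.55 (SE 0.26, adjusted p = 7.2e-09, the same edgeR test). As a percentage of the wild-type mean, residual Rtp1 was 0.458%, 0.432% and 0.55% in the 3 mutants and residual Rtp2 was 0.691%, 0.312% and 0.607%. The means were 0.48 ± 0.0619% for Rtp1 and 0.537 ± 0.199% for Rtp2 (SD, n = 3), and both residuals stood above the level that 3 counts would give, which was at most 0.016% for Rtp1 and 0.0377% for Rtp2. Counting error is the only error these floors cover. The exact permutation test on 3 against 3 mice gave p = 0.1 for each gene, the smallest p it can give.

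The files hold 1 value per transcript, so where on the transcript the residual reads fell was not tested. Rtp1 reads outnumbered Rtp2 reads by 2.42, 2.66 and 1.89 times in the wild-type mice on the normalized count scale and by 1.56, 3.27 and 2.13 times in the mutants. The 2 ranges overlapped, with the same mean of 2.32 and a wider spread in RTP1,2DKO (SD 0.867 against 0.392).

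Levels of different genes were compared in the deposited TPM values, which divide by transcript length and are scaled to the same total in each mouse. The wild-type mice ordered the RTP genes as Rtp1, Rtp2, Rtp4 and Rtp3. Rtp1 was at 278.0, 364.9 and 127.3 TPM in the 3 wild-type mice and Rtp2 at 157.6, 187.9 and 92.1 TPM, so that this pair, whose ranges overlapped between mice, was at 256.7 ± 120.2 and 145.9 ± 48.9 TPM (SD, n = 3). Within each wild-type mouse Rtp1 was above Rtp2, by 1.76, 1.94 and 1.38 times in TPM. The mean level of Rtp1 was above that of 98.6% of the 21547 genes with any TPM in the wild-type, and that of Rtp2 above 97.4%. Rtp4 followed at 13.5 ± 2.9 TPM, 10.8 times below Rtp2, and Rtp3 was near the limit of detection at 0.122 ± 0.0752 TPM. Ranges of Rtp2 and Rtp4, and of Rtp4 and Rtp3, did not overlap.

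In RTP1,2DKO the order was Rtp4, Rtp1, Rtp2 and Rtp3. Residual Rtp1 was at 1.14, 0.857 and 0.985 TPM and residual Rtp2 at 0.999, 0.359 and 0.632 TPM, ranges that overlapped with each other and stayed above those of Rtp3 at 0.219, 0.202 and 0.303 TPM. Rtp4, at 13.5, 12.3 and 17.4 TPM, made up 88.3 ± 2.74% of the summed RTP level in the mutants against 3.54 ± 1.2% in the wild-type (SD, n = 3). That sum was 416.2 ± 171.7 TPM in the wild-type and 16.3 ± 2.8 TPM in RTP1,2DKO, while the level of Rtp4 itself in TPM overlapped between the groups.

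**Figure D1:**
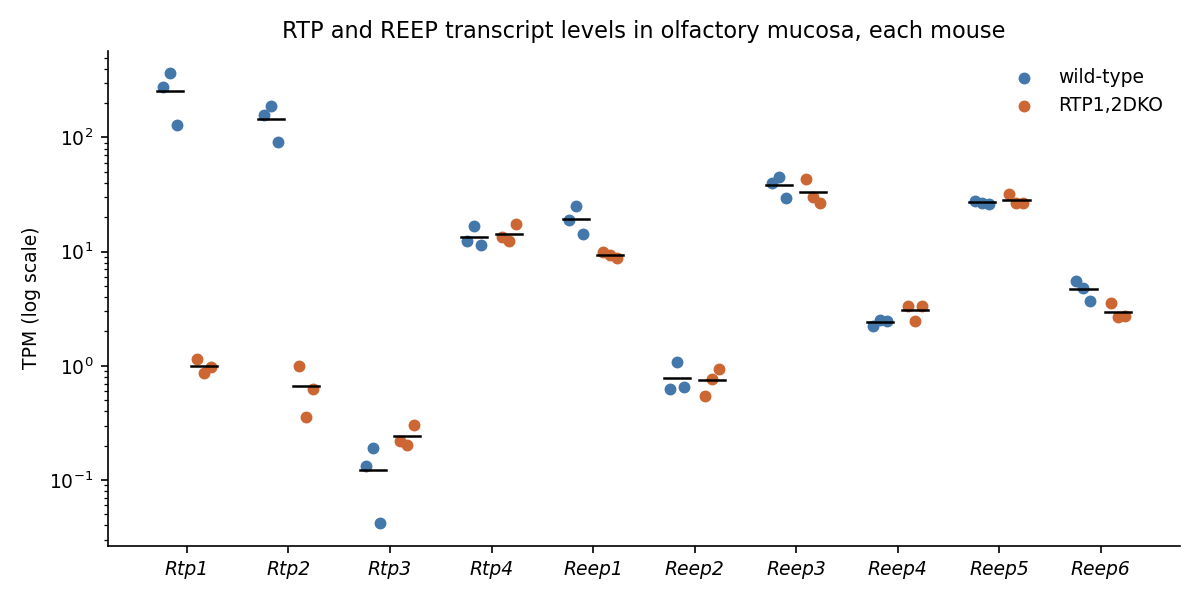
Level of each RTP and REEP gene in TPM on a log axis, with 1 point per mouse (3 wild-type in blue, 3 RTP1,2DKO in orange) and a black line at each group's mean. Rtp1 and Rtp2 dropped from 256.7 and 145.9 TPM to 0.994 and 0.664 TPM, and the 8 untargeted genes shift far less.

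TPM depends on the most abundant transcripts. The 10 genes of highest mean TPM held between 25.9% and 44.3% of the total in different mice, the lowest share in wild-type 2 and the highest in wild-type 3. Comparisons between genotypes were therefore made on counts normalized by median-of-ratios size factors, and TPM was used to compare genes.

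Of the 8 members that were not targeted, 1 passed the threshold between genotypes, Reep1, which was lower in RTP1,2DKO. Of the 22152 genes tested, 3.61% were past it in either direction, with 3.15% lower and 0.46% higher. Rtp1 and Rtp2 were past it and lower too, which their deletion fixed in advance, so that 3 of the 10 members were past it. The same 3 members passed under each of the 12 alternatives tried.

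Rtp3 and Rtp4, the untargeted RTP genes, were not past the threshold. Rtp3, on chromosome 9, is chiefly a liver gene. It had normalized counts of 7.3, 9.8 and 3.3 in the wild-type and 12.9, 15.0 and 24.8 in RTP1,2DKO, with every mutant above every wild-type mouse. At this depth the log2 fold change of 1.34 carried a 95% interval from -0.16 to 2.85 (adjusted p = 0.5156, edgeR quasi-likelihood test). Every mutant was also above every wild-type mouse for 7.2% of all genes tested. Only 65.9% of the 31-base words of an Rtp3 transcript occurred in no other gene. Of the 813 shared words 521 were in 1700061E17Rik, and the words were spread over 17 genes in all, so the few counts are uncertain. The gene 1700061E17Rik overlaps Rtp3 and is not among the genes in the files. Whether reads from it were counted as Rtp3 was not tested.

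Rtp4 lies on chromosome 16 from 23520291 to 23614222, between Rtp1 and Rtp2, in the interval that the targeting left in place. Normalized counts of Rtp4 were 360.0, 461.8 and 479.6 in the wild-type and 425.7, 488.4 and 761.4 in RTP1,2DKO. The groups overlapped and the highest value was in RTP1,2DKO 3. The log2 fold change of 0.36 had a 95% interval from -0.09 to 0.82 (adjusted p = 0.5815, edgeR), and 0.07 was left of it without RTP1,2DKO 3. The transcript shared no 31-base word with another gene.

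The other protein-coding genes of the interval were also measured. Masp1, which encodes a protease of the complement lectin pathway and overlaps Rtp4 on the other strand, had normalized counts of 9.3, 34.3 and 16.5 in the wild-type and 22.1, 37.5 and 14.7 in RTP1,2DKO, which overlapped. Sst, the somatostatin gene, had 2.1, 4.8 and 1.1 in the wild-type and 6.3, 6.1 and 28.4 in RTP1,2DKO, apart but with few counts (log2 fold change 2.28, SE 0.97, adjusted p = 0.3654, edgeR). None of the 3 interval genes passed the threshold by edgeR's quasi-likelihood test, edgeR's exact test or DESeq2, and 1 (Sst) had an unadjusted p under 0.05.

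Since Rtp4 responds to interferon, 30 interferon-response genes were followed. None passed the threshold in edgeR's quasi-likelihood test, with a median log2 fold change of 0.21 beside 0.02 over all genes. By an unadjusted p under 0.05 in that test there were 6, of which 5 were higher. How many of all genes had such an unadjusted p was not counted, here or for the other lists. Rsad2, which encodes the antiviral enzyme viperin, had normalized counts of 721.0, 906.4 and 681.8 in the wild-type and 1298.3, 1589.5 and 876.7 in RTP1,2DKO. It did not pass that edgeR test, with a log2 fold change of 0.71 (SE 0.19, adjusted p = 0.0771). With mice of the same replicate number treated as pairs it passed (log2 fold change 0.68, SE 0.13, adjusted p = 0.0108, edgeR with a replicate block). Rsad2 was also the one gene of the list that DESeq2 and edgeR's exact test called. Ddx58 and Ifit1, the most abundant genes of the list, which encode a sensor of viral RNA and an effector that binds it, had log2 fold changes of 0.08 and -0.19 and were not past the threshold.

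The REEP genes were ordered by TPM in the wild-type as Reep3, Reep5, Reep1, Reep6, Reep4 and Reep2. Reep3 and Reep5, at 38.2 ± 7.98 and 27.0 ± 0.937 TPM (SD, n = 3), made up 41.1 ± 2.3% and 29.6 ± 4.25% of the summed REEP level. Reep1 stood at 19.4 ± 5.35 TPM, Reep6 at 4.68 ± 0.905 TPM, Reep4 at 2.4 ± 0.154 TPM and Reep2 at 0.79 ± 0.253 TPM. No neighbours in this order overlapped in the wild-type. In RTP1,2DKO the ranges of Reep3 and Reep5 overlapped, as did those of Reep4 and Reep6, and Reep1 stood at 9.42 ± 0.565 TPM, 3.02 times below Reep5 where it had been 1.39 times below in the wild-type.

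Reep1, on chromosome 6 from 71707561 to 71810710 (plus strand), encodes a protein that links the endoplasmic reticulum to microtubules. Normalized counts of Reep1 were 1765.8, 2201.1 and 1936.1 in the wild-type and 1007.4, 1195.6 and 1241.6 in RTP1,2DKO. Every mutant was below every wild-type mouse, and the spread within each group was small (coefficients of variation of 11.1% and 10.8%). The log2 fold change of Reep1 was -0.78 (SE 0.13, 95% interval from -1.06 to -0.49), 1.71-fold lower (adjusted p = 0.0036, edgeR). Between mice of the same replicate number it was lower in 3 of 3 pairs, by -0.81, -0.88 and -0.64 on the log2 scale. Reep1 shared no 31-base word with another gene.

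The genes whose pattern over the 6 mice was most like that of Reep1 were Sema3e and Fam131c, out of 13900 genes with a mean of at least 100 normalized counts. The root mean square difference from Reep1 was 0.062 for Sema3e and 0.075 for Fam131c on a log2 scale centred on each gene's mean. Sema3e, which encodes a secreted axon guidance molecule, had a log2 fold change of -0.78 (adjusted p = 0.0051, edgeR) and Fam131c one of -0.70 (adjusted p = 0.0076, edgeR). Both were picked by their values in these same mice, so fold changes near that of Reep1 follow from the choice and are not separate evidence. For Rtp1 the nearest gene was Rtp2, and the reverse, at a difference of 0.335. The next for both was Gm4070, a predicted gene, at 0.969 from Rtp1 and 0.955 from Rtp2, which had normalized counts of 401.5, 328.6 and 437.0 in the wild-type and 0, 0 and 6.9 in RTP1,2DKO.

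Reep5 and Reep6 belong to the REEP subfamily that shapes endoplasmic reticulum tubules, and Reep6 is best known from rod photoreceptors. Reep5, on chromosome 18 from 34344885 to 34374070 (minus strand), had normalized counts of 1894.0, 1710.7 and 2546.9 in the wild-type and 2322.4, 2456.6 and 2712.5 in RTP1,2DKO. Its groups overlapped through wild-type 3, and the log2 fold change of 0.28 had a 95% interval from -0.04 to 0.61 (adjusted p = 0.5256, edgeR). Reep6, on chromosome 10 from 80329953 to 80336441 (plus strand), had 220.3, 181.3 and 215.0 in the wild-type and 157.0, 147.4 and 169.5 in RTP1,2DKO. Every mutant was below every wild-type mouse, as for 9.24% of all genes tested, with a log2 fold change of -0.38, a 95% interval from -0.79 to 0.03 and an adjusted p of 0.4934 (edgeR).

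Reep3 and Reep4 keep endoplasmic reticulum away from chromosomes during mitosis. Reep3, on chromosome 10 from 67009189 to 67096945 (minus strand), had the smallest coefficient of variation of the 10 members in the wild-type (4.2%), with normalized counts of 5610.2, 6036.5 and 6042.4 in the wild-type and 6581.7, 5729.8 and 5595.4 in RTP1,2DKO. The log2 fold change was 0.02 with a 95% interval from -0.24 to 0.27, and its sign turned under total-count scaling. Reep4, on chromosome 14 from 70545251 to 70548933 (plus strand), had 72.4, 76.5 and 116.3 in the wild-type and 117.0, 109.0 and 162.7 in RTP1,2DKO. It was higher in 3 of 3 pairs of mice, but its groups overlapped and its log2 fold change of 0.56 (95% interval from -0.04 to 1.15) was not past the threshold (adjusted p = 0.4821, edgeR).

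Reep2, on chromosome 18 from 34840589 to 34847463 (plus strand), is mainly expressed in brain and was scarcely detected. It had 24.8, 40.1 and 37.5 normalized counts in the wild-type and 23.2, 41.0 and 54.9 in RTP1,2DKO. The interval of its log2 fold change of 0.22, from -0.70 to 1.14, spans both signs, and no difference was detectable at this depth. Without RTP1,2DKO 3 it was -0.09.

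**Figure D2:**
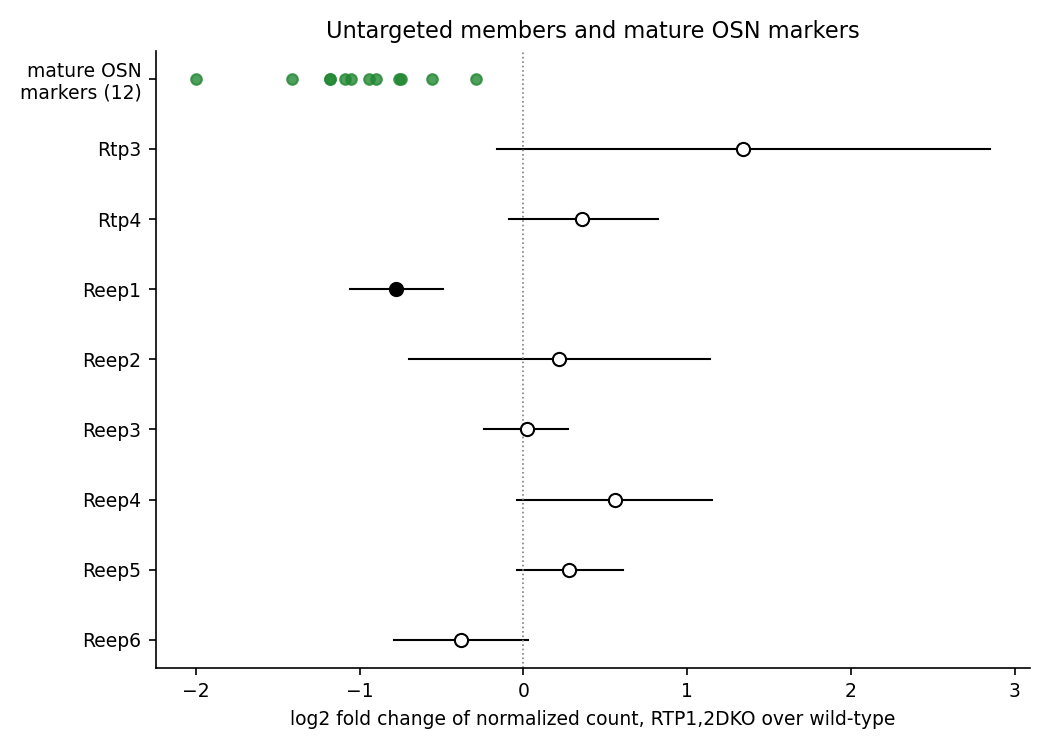
Log2 fold change of normalized counts (RTP1,2DKO over wild-type) of the 8 untargeted members, with 95% intervals as lines and a filled circle for an adjusted p under 0.05. Green points are the 12 mature OSN markers. Reep1, at -0.78, is the one filled circle. Reep1 and Reep6 (-0.38) both lie within the span of the markers, from -2.00 to -0.29. Reep6 does so through Ebf2 alone, the marker at -0.29, which was not past the threshold. The next marker was Gfy at -0.56.

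As shares of the summed REEP level in TPM, Reep1 took 19.9%, 23.6% and 18.6% in the wild-type and 10.8%, 13.1% and 12.8% in RTP1,2DKO, with no overlap. Reep5 made up 29.5%, 25.4% and 33.9% in the wild-type and 34.5%, 37.2% and 38.8% in the mutants, also with no overlap, while its level in TPM did overlap. Shares of Reep4 (2.65 ± 0.501% and 3.97 ± 0.766%, SD) and Reep6 (5.07 ± 0.656% and 3.83 ± 0.121%, SD) did not overlap between wild-type and RTP1,2DKO either, and those of Reep2 and Reep3 did. The exact permutation test gave p = 0.1 for each of the 4 shares that were apart, its smallest value. Shares of one sum depend on each other, since a fall in one raises the rest, so these are not 4 separate changes. In normalized counts the groups of Reep4 and of Reep5 overlapped. How often such shares are apart among other genes was not tested. The sum over the 6 REEP genes was 92.4 ± 14.5 TPM in the wild-type and 77.8 ± 12.7 TPM in RTP1,2DKO (SD, n = 3), and these groups overlapped.

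**Figure D3:**
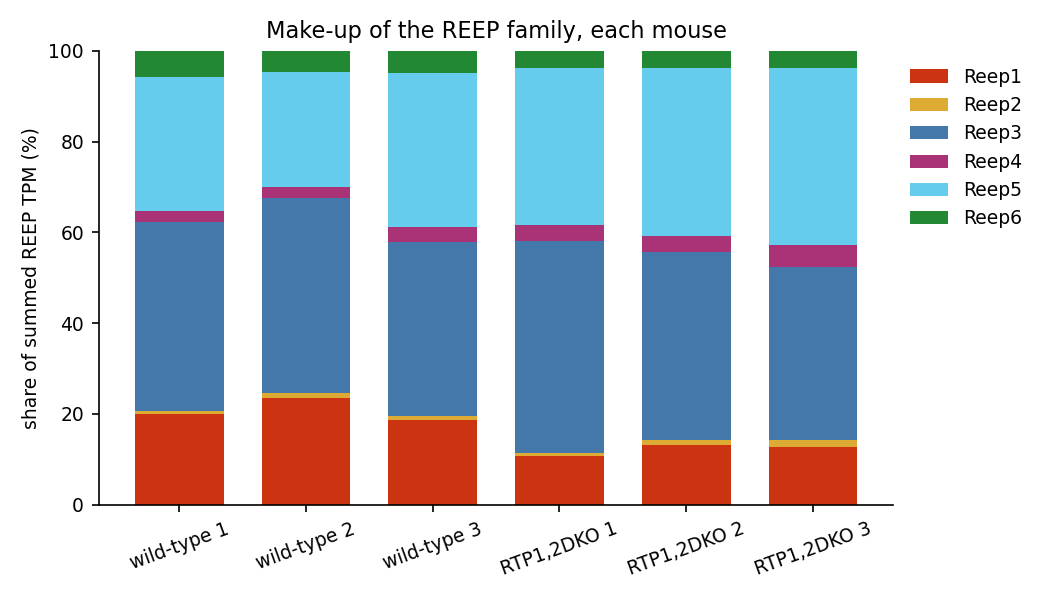
Share of the summed REEP level in TPM taken by each of the 6 REEP genes, with 1 stacked bar per mouse. Reep1 (red) takes 20.7% on average in the wild-type and 12.2% in RTP1,2DKO, and Reep3 and Reep5 hold most of each bar.

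The cell types of the mucosa were followed with lists of marker genes. The 12 mature OSN markers include Omp, Gnal and Adcy3, which encode the olfactory marker protein, the olfactory G protein subunit and the adenylyl cyclase of odorant transduction. Of them, 10 were past the threshold and lower in RTP1,2DKO (11 with mice paired by number), and their summed normalized counts ranged from 186045 to 210416 in the wild-type and from 100994 to 107982 in the mutants, 1.94-fold lower (log2 difference -0.96). Among 10 immature OSN markers, 2 (Gap43 and Gng8) were past the threshold and higher, or 4 with mice paired by number. In normalized counts 6 of the 10 were higher without overlap, and Ncam1 alone had a negative log2 fold change (-0.25). The list's sum was higher by a narrow margin, from 54109 to 65805 in the wild-type and from 65853 to 75125 in RTP1,2DKO. None of the 6 progenitor markers passed the threshold in edgeR's quasi-likelihood test, though 6 had an unadjusted p under 0.05, all higher, and Top2a passed with mice paired by number and by DESeq2. Of 8 sustentacular markers, none passed in any of these tests and none had an unadjusted p under 0.05. Of the 5 blood markers 1 (Hbb-bt) was past the threshold and higher, 2 by DESeq2 and none with mice paired, and all 5 had an unadjusted p under 0.05 and were higher. Of the 3 vomeronasal markers none passed in any of these tests, and 2 (Trpc2 and Gnai2) were higher without overlap with an unadjusted p under 0.05. No marker of horizontal basal cells, respiratory ciliated cells, Bowman glands, olfactory ensheathing cells, macrophages or muscle passed in any of these tests. Of the 5 respiratory ciliated markers 2 were lower without overlap, as were 9.24% of all genes tested. A lower marker with an unadjusted p under 0.05 was found for ciliated cells (1) and ensheathing cells (1). The share of all genes with such an unadjusted p was not counted. In whole tissue, fewer cells of a type and less RNA per cell cannot be told apart. The part of these shifts in the members' values was not tested beyond the ratios that follow.

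Members were then set against the summed mature OSN markers of the same mouse. The log2 ratio of Reep1 to this sum was -6.90, -6.56 and -6.59 in the wild-type and -6.65, -6.50 and -6.35 in RTP1,2DKO. Its groups overlapped, and the mean difference was 0.18 (exact permutation test, p = 0.3). Within pairs of mice of the same number the Reep1 ratio was higher in the mutant in 3 of 3, by 0.25, 0.06 and 0.23, and an exact sign-flip test gave p = 0.25, the smallest p that 3 pairs allow. Leaving out any 1 marker or mouse kept the mean difference between 0.07 and 0.25. For the other 7 untargeted members the ratio was higher in every mutant than in every wild-type mouse, with differences from 0.58 for Reep6 to 2.25 for Rtp3. That count is near the background, since 74% of all genes tested were also higher without overlap on this ratio, whose denominator was itself lower in the mutants.

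**Figure D4:**
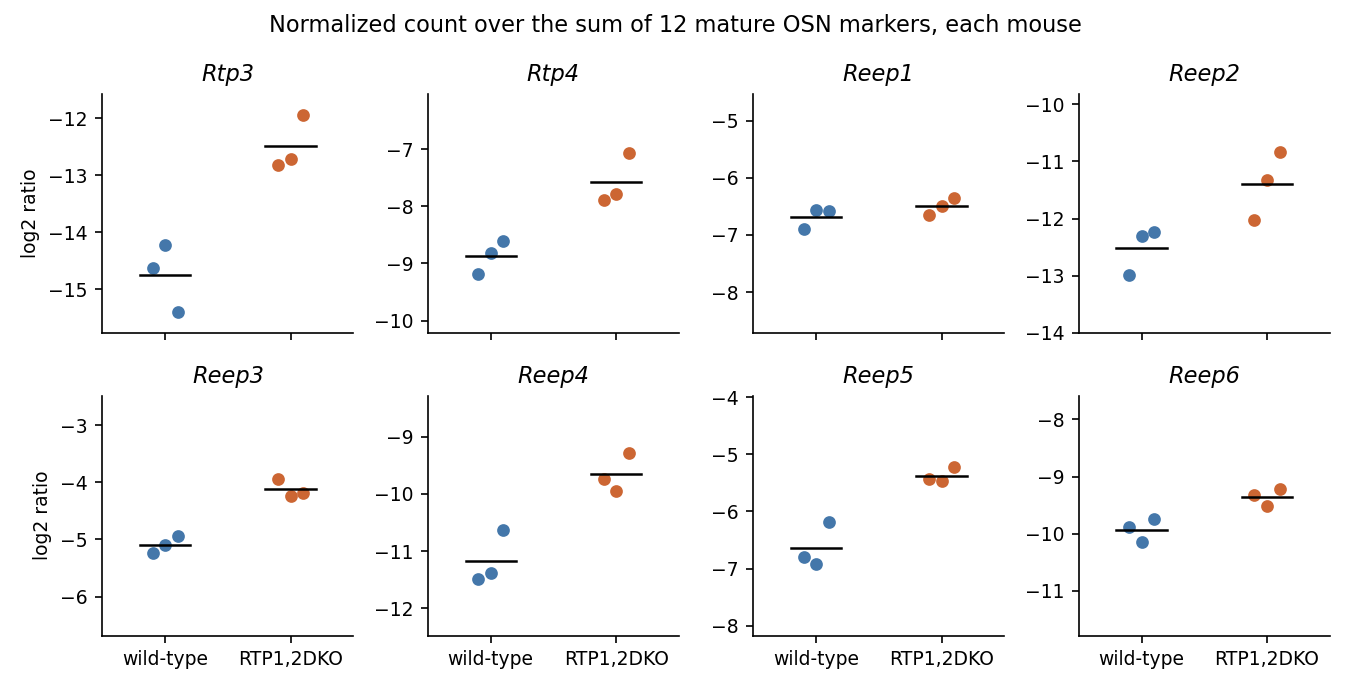
Log2 ratio of each untargeted member's normalized count to the summed normalized counts of 12 mature OSN markers, with 1 point per mouse and a line at each group's mean, every panel spanning the same height. The groups overlap for Reep1 (means -6.68 and -6.50) and are apart for the other 7 members.

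Other genes of receptor folding were examined next. Of 24 genes (chaperones and receptor accessory genes, with Chrm3, Atf5 and Ddit3 also in the list), 1 was past the threshold, Ric8b, which was lower in RTP1,2DKO. Ric8b encodes a guanine nucleotide exchange factor that acts on the olfactory G protein. Normalized counts of Ric8b were 13426.8, 13845.9 and 10149.0 in the wild-type and 6725.0, 6757.7 and 6308.9 in RTP1,2DKO (log2 fold change -0.92, SE 0.14, adjusted p = 0.0016, edgeR). The most abundant genes of the list were the chaperones Hsp90aa1 and Hspa8, with log2 fold changes of -0.02 and -0.13. Hspa8 did not pass the threshold (adjusted p = 0.7573, edgeR), but its normalized counts were lower without overlap, from 19035.3 to 19166.7 in the wild-type and from 16659.6 to 18108.4 in RTP1,2DKO. The summed counts of the list were also lower without overlap (168544 to 171757 and 159118 to 164927), and overlapped once Ric8b was left out (154698 to 161608 and 152393 to 158170). The list's median was -0.02 beside 0.02 over all genes.

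Of 21 measured genes that shape the endoplasmic reticulum (atlastins, reticulons and their partners), none was past the threshold by edgeR's quasi-likelihood or exact test or by DESeq2, and 3 had an unadjusted p under 0.05, all lower. How many of all genes had such an unadjusted p was not counted. The median log2 fold change was -0.06. Rtn4 and Rtn3, the most abundant, had log2 fold changes of 0.13 and -0.11. Rtn1, a reticulon of neurons, had normalized counts of 8453.3, 12900.4 and 11384.9 in the wild-type and 9236.0, 8380.6 and 7738.7 in RTP1,2DKO, with a log2 fold change of -0.37 (adjusted p = 0.3447, edgeR). Without wild-type 1 it became the 1 gene of the list to pass (-0.52, adjusted p = 0.0466, edgeR).

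Of the members, 3 have more than 1 transcript in the files, Reep2, Reep3 and Reep6, and the division of counts between transcripts is an estimate of kallisto. For Reep6 a transcript of 2036 bases held 10.7%, 10.4% and 16.4% of the gene's counts in the wild-type and 55.7%, 40.9% and 67.8% in RTP1,2DKO, and a transcript of 1935 bases held the rest. The shares did not overlap, and how often transcript shares are apart among other genes was not tested. Normalized counts of the longer Reep6 transcript were 25.9 ± 8.4 in the wild-type and 87.5 ± 27.3 in RTP1,2DKO, and those of the shorter one 179.7 ± 17.2 and 70.5 ± 16.3 (SD, n = 3), so that the longer was higher and the shorter lower in every mutant, and the gene as a whole did not pass the threshold. A test of unequal change among a gene's transcripts over 4831 genes, added after these values were seen, called 47 genes (0.973%) and gave Reep6 an unadjusted p of 7.60e-04 (edgeR quasi-likelihood test) and an adjusted p of 0.069, which misses the threshold. The adjusted p of Reep6 lay between 0.081 and 0.217 with single mice left out, and was 0.334 with mice paired by number, a fit in which no gene was called. That test called 96 to 134 genes with single mice left out.

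For Reep3 the longer of its 2 transcripts, of 5550 bases, held 2.2%, 5.1% and 3.5% of counts in the wild-type and 7.1%, 8.9% and 6.8% in RTP1,2DKO. These groups were apart as well, again with no background counted, but the adjusted p of 0.522 (edgeR) was far from the threshold. The shorter transcript has 5473 bases. The difference of 77 bases is the length of a coding exon that 1 GENCODE transcript of Reep3 contains and a longer one skips. That exon is printed for this match. Another exon of the same length is common to both, and the files do not give exons, so the match is by length alone. Neither Reep3 transcript was matched to a GENCODE transcript by its full length, and Reep3-201 has 5430 bases. Whether the 77 bases lie in this exon or elsewhere, such as at a transcript end, was not tested. Capitals mark the exon, chr10:67014088-67014164 (GRCm38, minus strand), and lower case the 12 coding bases of the exon on either side of it in the spliced transcript.
Reep3 exon: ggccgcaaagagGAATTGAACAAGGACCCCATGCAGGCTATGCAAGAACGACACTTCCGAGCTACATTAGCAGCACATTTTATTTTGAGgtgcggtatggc

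Neither Reep6 transcript has the length of a GENCODE transcript, so their difference of 101 bases was assigned to no exon. Reep2 has transcripts of 1926 and 1920 bases. All of its reads went to the longer one except in RTP1,2DKO 2, where 50.4% went to the shorter, and no comparison was made on so few counts.

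**Figure D5:**
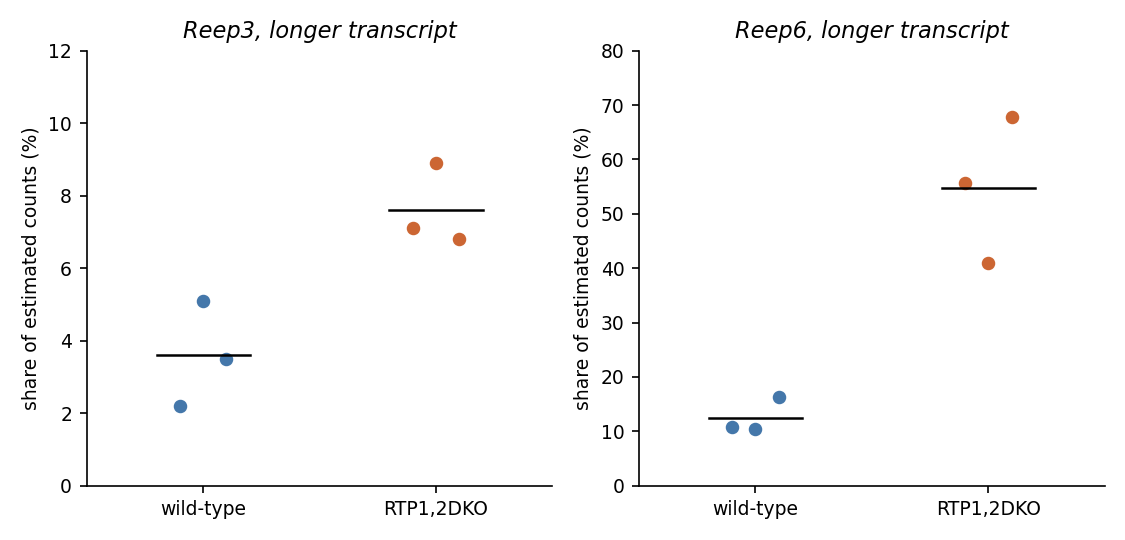
Share of the gene's estimated counts assigned to the longer transcript of Reep3 (left) and Reep6 (right), with 1 point per mouse and a line at each group's mean. The means are 3.6% and 7.6% for Reep3 and 12.5% and 54.8% for Reep6 (wild-type, then RTP1,2DKO), with no overlap between groups in either panel. Neither gene passed edgeR's test of transcript usage (adjusted p = 0.522 for Reep3 and 0.069 for Reep6). The frequency of such a lack of overlap among other genes was not tested.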

How the data were processed

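The authors extracted RNA from whole olfactory mucosa and sequenced stranded libraries on an Illumina HiSeq (the labels name a KAPA kit, the methods a TruSeq kit). They ran kallisto (version not given in the sources used here) on mouse transcripts with extended odorant receptor annotations, and the submitters' processing notes name the build mm10. The deposited files give estimated counts and TPM per transcript. Estimated counts were summed per gene and rounded.

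Genotypes were compared over genes with at least 1 count in R 4.3.3 with edgeR 4.0.16 (quasi-likelihood F-test), size factors by the median-of-ratios method (DESeq2 1.42.0) and Benjamini-Hochberg adjustment at 0.05. A gene's SE is the size of its log2 fold change over the square root of its F. Single values were compared by two-sided exact permutation tests (Python 3.11.15, scipy 1.17.1). Transcript usage was tested with edgeR's diffSpliceDGE. Positions and sequences come from GENCODE M21 (GRCm38). On simulated counts the main test recovered 60% of 100 genes changed 2-fold and 95% of 100 changed 4-fold among 21949, with 10.4% of its calls false, above the nominal level. The usage test recovered 66% of 200 genes whose transcripts were swapped among 4420, with 19.0% of its calls false. The members, lists and tests were chosen with earlier results of these data known. Named were all members, the interval genes and the 2 genes nearest in pattern to each member past the threshold. From the receptor folding, ER-shaping and interferon lists, every gene past the threshold and the 2 most abundant were named. Rsad2 and Rtn1 were named after their values were seen. Cell type markers were named only in part, and Ncam1, Top2a, Trpc2, Gnai2 and Ebf2 among them for their values.

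Replicate numbers were taken to pair the mice only where pairs or a replicate block are named, and all other tests were unpaired. Deviations from the group means of mice with the same number correlated by 0.142, 0.181 and 0.102 over 18136 genes (those with different numbers by -0.224 to 0.095), and the methods describe sex-matched littermates. Xist was high (77209.7 and 76124.5 estimated counts) in mouse 2 of each genotype alone. The labels do not state the pairing. With 3 mice per group p-values rest on the spread between these mice, and in the edgeR fits that spread is estimated partly from other genes.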

Additional observations from a re-analysis of the deposited data

How the results depend on the processing

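The same 3 members were past the threshold under TMM or total-count scaling, filterByExpr, DESeq2, edgeR's exact test, a replicate block and with each mouse left out. The adjusted p of Reep1 ranged from 7.1e-06 to 0.0213. With the replicate block, which pairs mice by number, 1012 genes were called (196 higher) in place of 799 (102 higher), Reep1 had a log2 fold change of -0.78, and the block changed no call of a member and, beyond Rsad2 and the marker genes counted with it, no other call among the lists. DESeq2 called 1112 genes (217 higher), the exact test 937 (146 higher), total-count scaling 670 (42 higher) and the fits without 1 mouse 598 to 777. Residual Rtp1 was 0.387% of the wild-type mean in deposited TPM, and 0.414% to 0.557% with single mice left out (0.557% without wild-type 2, 0.414% without wild-type 3). The ER-shaping list had 0 to 1 genes past the threshold with single mice left out, the 1 without wild-type 1. Signs turned for members that were not past the threshold, with log2 fold changes of -0.01 for Reep3 under total-count scaling, -0.02 without wild-type 1 and -0.06 without RTP1,2DKO 1, and -0.09 for Reep2 without RTP1,2DKO 3, within ranges over single mice left out of -0.06 to 0.06 and -0.09 to 0.49. Rtp3 and Reep2, with under 60 counts in every mouse, are limited by depth.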
